A study of Mus musculus with 72 samples.

Results

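The members described here are the mouse liver libraries of the 14 d exposure: 35 of the 72 libraries of a study of tertiary butyl alcohol (TBA), a small tertiary alcohol given in drinking water. They were chosen by their label, exposure for 14 d, at 0 (9 animals), 10 (9), 20 (9) and 40 mg/mL (8), less the 1 library of the 36 with under 100000 counts. All animals were single-housed female B6C3F1 mice, 9 to 11 weeks old, and the 0 mg/mL group had the same handling and no TBA. The study's title names an anti-thyroid mode of action as its subject. Each library was made from 1 liver, fixed in formalin, embedded in paraffin, cut and scraped from the slide, with the probe-ligation assay TempO-Seq, which counts 1 short probe per transcript stretch. The labels name no batch and give no pairing. The question put to the data was which probes followed dose in a straight line, and which had another shape.

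In liver, foreign compounds that activate the nuclear receptors CAR and PXR raise cytochromes P450 and conjugating enzymes. Conjugation of thyroid hormone with glucuronic acid (UGT enzymes) or sulfate (SULT enzymes) clears it from blood, and falling hormone then raises the drive to the thyroid. The liver also makes carriers of the hormone in blood and the deiodinase Dio1, and secretes albumin, apolipoproteins and, in mice, the major urinary proteins (MUPs).

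Total counts were 7.89 M to 12.7 M per library and had a slope of -0.134 M per 10 mg/mL (two-sided permutation p = 0.342, 35 libraries). The scaling factor, by which a library's total is multiplied before counts are expressed as CPM, on a common depth, ran from 0.847 to 0.961 in controls and from 0.978 to 1.58 at 40 mg/mL, with no overlap. Its log2 slope was 0.114 per 10 mg/mL (permutation p = 2e-05, adjusted p = 3e-05). The 20 most abundant probes held 20.5% to 23.7% of counts in controls and 9.62% to 18.6% at 40 mg/mL, again with no overlap, a slope of -1.95 percentage points per 10 mg/mL (adjusted p = 3e-05). At 40 mg/mL, replicates 1 and 7 had the highest factors, 1.55 and 1.58. Named slopes whose call was lost without both are marked where they are described. In these bulk samples, fewer cells of a type and less RNA per cell cannot be told apart. The p-values of probes rest on the spread between animals, estimated over 71 libraries of both durations.

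A slope is the log2 change per 10 mg/mL over the 4 doses, from edgeR's quasi-likelihood test, called at an adjusted p under 0.05. Of 17050 probes tested, 1362 passed (7.99%): 622 rose (3.65%) and 740 fell (4.34%). Few probes passed in comparisons that left out the top dose, which also span a shorter range of doses. No probe differed between 10 and 0 mg/mL in edgeR (0 of 17050, 0%; 736 had an unadjusted p under 0.05). Between 20 and 10 mg/mL 2 did (0.0117%), 1 each way (0.00587%). Between 20 and 0 mg/mL 6 did (0.0352%), 5 higher (0.0293%) and 1 lower (0.00587%). Between 40 and 0 mg/mL 1111 did (6.52%), 484 higher (2.84%) and 627 lower (3.68%), and 571 probes differed among the 4 groups in any way (3.35%). Over 0 to 20 mg/mL alone, 6 probes had a slope that passed (0.0352%; 1032 at an unadjusted p under 0.05), 5 rising (0.0293%) and 1 falling (0.00587%). Of the 1362 probes, 308 had an unadjusted p under 0.05 for that slope. Their effect was on the side of the slope for 1276 at 20 mg/mL and 1069 at 10 mg/mL, though the slope itself uses these means. From 20 to 40 mg/mL, 147 probes passed (0.862%), 34 higher (0.199%) and 113 lower (0.663%). Leaving out replicates 1 and 7 at 40 mg/mL took the trend count to 232, and leaving out replicate 1 or 7 alone to 714 or 699. Adding each library's log2 scaling factor to the model gave 430, of which 138 were among the 1362 and 64.4% rose. Scaling without the 20 most abundant probes gave 1309.

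**Figure D1:**
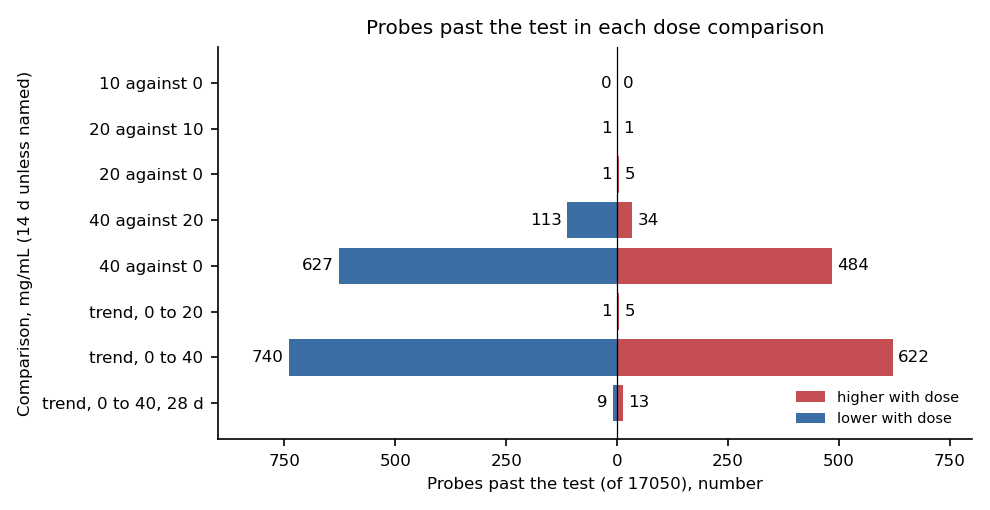
Number of probes past the test (horizontal axis, of 17050) in each comparison of doses in mg/mL, 14 d unless named. Red bars count probes higher with dose and blue bars probes lower. The counts are 0 and 0 for 10 against 0 mg/mL, 5 and 1 for 20 against 0, and 484 and 627 for 40 against 0.

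The shape of each probe was described from its 4 fitted means, with no test. Among the 1362 probes, 809 were graded (59.4%), 224 moved mainly in the step from 20 to 40 mg/mL (16.4%), 23 reached a plateau by 20 mg/mL (1.69%), 3 turned back at 40 mg/mL (0.22%) and 303 fitted none of these (22.2%). Over all probes tested, the shares in the same order were 17.1%, 3.99%, 8.44%, 20.7% and 49.8%. Strictly ordered means were found in 56.5% of the 1362 against 16.1% of all probes tested. The trend test itself favours such an order, and with it the graded and top step shapes over plateaus and reversals. A departure from the straight line passed for 8 probes (0.0469%; 790 at an unadjusted p under 0.05): Lcn2, Saa1, Saa2, Cxcl1, Mmp7, Cyp2c55, Btg2 and Mul1.

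The clearest graded pattern was a fall of the MUPs, small pheromone-binding proteins that mouse liver secretes and that are regulated by growth hormone and sex steroids. Of 12 measured MUP genes, 11 fell and none rose, against 4.6% of all genes falling (1 probe per gene). Their median slope was -0.469, beside 0.0126 over all genes, and their median log2 effect was -0.294 at 10, -0.785 at 20 and -1.73 at 40 mg/mL. The family is highly similar in sequence, so a probe may read several members.

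Mup13, among the most abundant, had 24800 to 37600 CPM in controls (median 30800), 3620 to 34700 at 10 mg/mL (median 28700), 4690 to 33600 at 20 mg/mL (median 19400) and 2950 to 16300 at 40 mg/mL (median 7450). All 8 animals at 40 mg/mL lay below every control, as did 7 of 9 at 20 and 3 of 9 at 10 mg/mL. Its slope was -0.49 ± 0.07 (SE, adjusted p = 9.72e-06), and the level at 40 mg/mL was 3.85-fold lower. Mup16 had 259 to 433 CPM in controls, 46.6 to 403 at 10, 64.5 to 365 at 20 and 47.4 to 156 at 40 mg/mL, with a slope of -0.52 ± 0.07 (adjusted p = 3.17e-06). Here too all 8 top-dose animals were below all controls. Mup7 had the steepest MUP slope, -0.58 ± 0.09 (adjusted p = 3.81e-05), and Mup17 alone did not pass (slope -0.447, adjusted p = 0.149). Without replicates 1 and 7 at 40 mg/mL, 10 of the 12 fell, and with the scaling factor as a covariate 7 did.

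Genes expressed more in male than in female mouse liver fell as well: 10 of 13 measured, against 4.6% of all genes. None rose, and the median slope was -0.453. Mup3, Mup7 and Mup20 of the 13 are also counted in the MUP list. Slco1a1, a carrier of bile acids and thyroid hormone, had 14 to 50.6 CPM in controls (median 37.8), 0.579 to 43.5 at 10 mg/mL (median 33.9), 0.997 to 38 at 20 mg/mL (median 14.5) and 0.436 to 24.5 at 40 mg/mL (median 4.56). Its groups overlapped, with 6 of 8 top-dose animals below all controls, and its slope was -0.54 ± 0.15 (adjusted p = 0.0119, and 0.129 without replicates 1 and 7 at 40 mg/mL). Cyp7b1, an oxysterol and steroid hydroxylase, fell with a slope of -0.40 ± 0.08 (adjusted p = 0.000941). Only 5 of the 13 passed without replicates 1 and 7 and 3 with the covariate. Of 14 genes expressed more in female liver, 1 rose, against 3.84% of all genes, and none fell. It was Acot3 (slope 0.37, adjusted p = 0.037, and 0.142 without both replicates), and the list's median slope was -0.0185.

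Several single genes fell over all doses, while none of them passed at 10 or 20 against 0 mg/mL (adjusted p at 20 mg/mL 0.0508 to 0.603). Mug1, a murinoglobulin protease inhibitor, had 1870 to 2950 CPM in controls (median 2170), 778 to 2230 at 10 mg/mL (median 1830), 675 to 1740 at 20 mg/mL (median 1080) and 231 to 809 at 40 mg/mL (median 715). All 9 animals at 20 mg/mL and all 8 at 40 mg/mL were below every control, and 6 of 9 at 10 mg/mL were. The slope was -0.49 ± 0.07 (adjusted p = 3.17e-06). Slc22a28, of the organic anion transporter family, had 5.58 to 15.7 CPM in controls, 1.52 to 8.17 at 10, 0 to 5.55 at 20 and 1.47 to 3.76 at 40 mg/mL. Its fitted log2 effects were -0.99, -1.89 and -2.16 (slope adjusted p = 0.00107). The predicted gene Gm10681 had the steepest slope among falling genes of at least 5 CPM after Serpina9: -1.03 ± 0.20 (adjusted p = 0.000513), with medians of 99.7, 33, 5.44 and 3.27 CPM from 0 to 40 mg/mL. Serpina9, a serine protease inhibitor, fell by 1.06 ± 0.20 on the log2 scale per 10 mg/mL (adjusted p = 0.000552), from a median of 9.7 CPM in controls to 0.436 at 40 mg/mL. These 4 genes kept their direction and call in all 35 fits that left out 1 library. Serpina9 did not pass with limma.

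**Figure D2:**
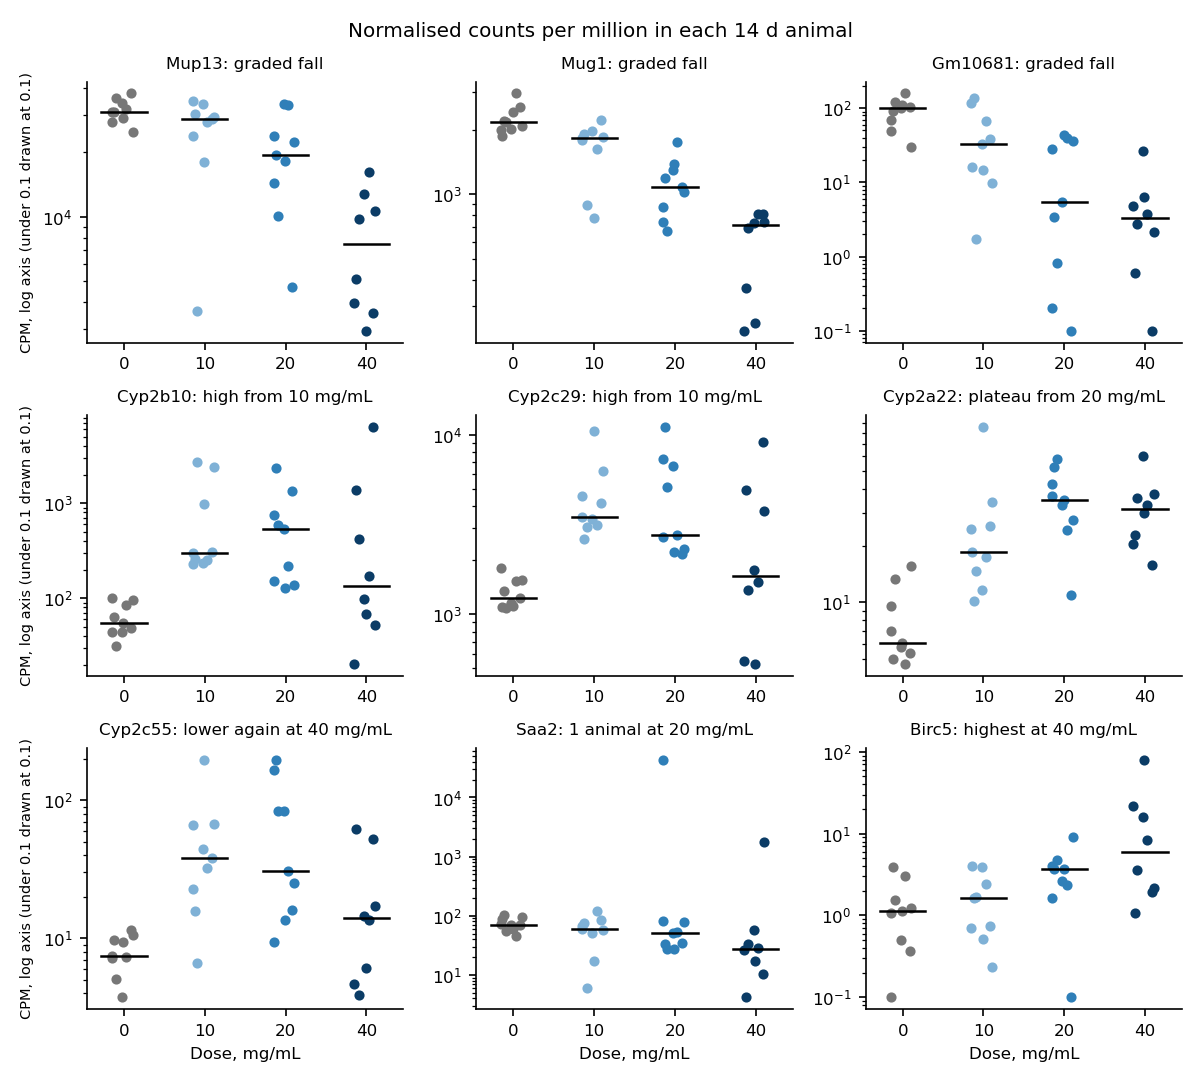
Normalised CPM (vertical log axis, values under 0.1 drawn at 0.1) of 9 genes in each 14 d animal by dose in mg/mL (9, 9, 9 and 8 animals). Points are animals and bars are group medians. Mup13, Mug1 and Gm10681 fall with dose, Cyp2b10 and Cyp2c29 are above every control in all 9 animals at 10 and at 20 mg/mL, and in Saa2 a single animal at 20 mg/mL reaches 43400 CPM.

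Some genes of drug metabolism, described here one by one and not as a list, had most of their fitted difference from controls by 20 mg/mL. Cyp2b10, the P450 most used as a marker of CAR activation, had 31.6 to 101 CPM in controls (median 54.6), 232 to 2750 at 10 mg/mL (median 296), 128 to 2330 at 20 mg/mL (median 536) and 20.3 to 6420 at 40 mg/mL (median 136). Every animal at 10 and at 20 mg/mL was above every control, whereas only 4 of 8 at 40 mg/mL were and 1 was below all controls. Its log2 effects were 3.76, 3.45 and 4.09, with adjusted p = 0.0878, 0.0508 and 0.000796, so that only the last passed. Its slope of 0.83 ± 0.18 passed (adjusted p = 0.00167), but the top-dose mean rested on replicate 9 (6424 CPM): without it the slope was 0.373 and did not pass (adjusted p = 0.165). It also failed to pass with limma.

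Cyp2c29, another CAR target, was named after its values were seen. It had 1080 to 1810 CPM in controls (median 1230), 2640 to 10500 at 10 mg/mL (median 3480), 2170 to 11100 at 20 mg/mL (median 2770) and 529 to 9090 at 40 mg/mL (median 1630). Again all 9 animals at 10 and all 9 at 20 mg/mL exceeded every control, against 3 of 8 at 40 mg/mL, where 2 lay below all controls. Its slope of 0.19 ± 0.09 did not pass (adjusted p = 0.226), nor did its departure from the line (adjusted p = 0.0898). Across all 17050 probes, 4 had every animal at 10 mg/mL above every control (0.0235%), namely 2 probes each of Cyp2b10 and Cyp2c29. The same count was found at 20 mg/mL (0.0235%), from the same 2 genes, and both doses are read against the same controls. At 40 mg/mL 17 probes were fully above (0.0997%), neither gene among them.

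Cyp2a22, a P450 of the Cyp2a family, had 4.69 to 15.7 CPM in controls (median 6.09), 10.1 to 86.3 at 10 mg/mL (median 18.5), 11 to 57.9 at 20 mg/mL (median 35) and 15.8 to 60.1 at 40 mg/mL (median 31.4). It was above all controls in 6 of 9, 8 of 9 and 8 of 8 animals. It rose over 0 to 20 mg/mL (slope 1.07, adjusted p = 0.00106) and over all doses (slope 0.42 ± 0.08, adjusted p = 0.000552), while its step from 20 to 40 mg/mL was -0.16 ± 0.34. Akr1b10, an aldo-keto reductase, had medians of 6.92, 9.8, 12.6 and 11.4 CPM and log2 effects of 0.60, 0.92 and 0.98. It rose over 0 to 20 mg/mL (adjusted p = 0.0269) and over all doses (adjusted p = 0.000577). The trends of Cyp2a22 and Akr1b10 over all doses passed in each fit that left out 1 library. Over 0 to 20 mg/mL, Akr1b10 lost its call in 7 of those fits and Cyp2a22 in none.

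In the whole list of CAR and PXR targets, 4 of 24 rose over all doses, 1 fell and 19 did not pass, against 3.84% of all genes rising and 4.6% falling. The list's median log2 effect was 0.381 at 10, 0.322 at 20 and -0.00462 at 40 mg/mL, beside 0.0152, 0.00762 and 0.0501 over all genes. The 4 that rose were Cyp2b10, Abcc4, an efflux pump (slope 0.529, adjusted p = 0.0252), Gadd45b, a stress-induced gene (0.375, adjusted p = 0.0411), and Gstm1, a glutathione transferase (0.20 ± 0.05, adjusted p = 0.00489). Cyp2c54 fell (slope -0.337, adjusted p = 0.012). Cyp3a11, the main marker of PXR activation, had effects of 0.38, 0.17 and -0.38 and did not pass (adjusted p = 0.34). Without replicate 9 at 40 mg/mL 1 of the 24 rose, and with limma none rose and 3 fell. Over the fits without 1 library, 1 to 5 fell. The call of Gadd45b was lost in 10 of those fits, and those of Abcc4 and Cyp2c54 without replicates 1 and 7 (adjusted p = 0.119 and 0.156).

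The departure test asks whether the group means leave a straight line in any way, at the top dose or below it. It does not test a turn at the top dose as such. Cyp2c55, a P450 induced through CAR and PXR, had 3.75 to 11.5 CPM in controls (median 7.48), 6.65 to 195 at 10 mg/mL (median 38.2), 9.41 to 196 at 20 mg/mL (median 30.8) and 3.9 to 61.5 at 40 mg/mL (median 14.1). It was above all controls in 8 of 9 animals at 10 mg/mL, 8 of 9 at 20 and 5 of 8 at 40 mg/mL. The departure passed (adjusted p = 0.0206), as did the slope over 0 to 20 mg/mL (1.56, adjusted p = 0.0289), but the step down from 20 to 40 mg/mL did not (-1.67 ± 0.61, adjusted p = 0.198). The departure was lost in 3 of the fits without 1 library, with a highest adjusted p of 0.0663, and the slope over 0 to 20 mg/mL in 10, with a highest of 0.11. From 14 d libraries alone neither passed (adjusted p = 0.167 and 0.121).

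Of the other departures, 4 shared 1 high animal. Saa2, serum amyloid A, an acute phase protein, had 45.2 to 101 CPM in controls, 6 to 121 at 10, 27 to 43400 at 20 and 4.18 to 1760 at 40 mg/mL. Replicate 5 at 20 mg/mL held the highest value, and the next at that dose was 81.1 CPM. The same animal had the highest Saa1 (62900 CPM), Lcn2 (1600 CPM) and Cxcl1 (337 CPM) of its group. The 4 departures passed (adjusted p = 0.00158, 0.0132, 0.00139 and 0.00409), and without that animal all had an adjusted p of 1. Mmp7, a matrix metalloproteinase, had 62.3 CPM in replicate 2 at 10 mg/mL and at most 4.86 in any other dose group. Its departure (adjusted p = 0.00409) went to 0.26 without that animal. That of Btg2 (adjusted p = 0.00745) was lost without replicate 3 at 20 mg/mL (0.0988). That of Mul1 (adjusted p = 0.0348) was lost in 12 of the 35 fits without 1 library, from all 4 doses, with a highest of 0.209. Of 19 acute phase genes, 2 fell over all doses, against 4.6% of all genes. They were Fgg (fibrinogen gamma, slope -0.262, adjusted p = 0.00718) and Apcs (serum amyloid P, -0.217, adjusted p = 0.0306). The count was 1 to 7 over the fits without 1 library and 7 in DESeq2. Without replicates 1 and 7 at 40 mg/mL none fell (Fgg 0.14, Apcs 0.223), and with the covariate 4 rose and 1 fell. From 20 to 40 mg/mL 6 of the 19 fell, against 0.696% of all genes, but 1 of the 19 did without replicate 5 at 20 mg/mL. Apcs had 966 CPM in the same replicate 5 beside 113 to 214 in the rest of its group.

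Genes of thyroid hormone disposal did not rise with dose as a group. Of 15 measured UGT genes, 6 fell and none rose, against 4.6% of all genes falling. Their median slope was -0.134, and median effects were 0.132, 0.055 and -0.458. Ugt1a1, which conjugates bilirubin and thyroxine, had 2340 to 3280 CPM in controls (median 2740), 1700 to 3880 at 10 mg/mL (median 2990), 1880 to 3910 at 20 mg/mL (median 2630) and 382 to 2590 at 40 mg/mL (median 1450). The groups overlapped, and 6 of 8 top-dose animals were below all controls. Its slope was -0.25 ± 0.06 (adjusted p = 0.00684, and 0.159 without replicates 1 and 7 at 40 mg/mL), with effects of 0.06 and -0.05 at 10 and 20 mg/mL. Genes of the Ugt1a locus share their last exons, so probes may not separate them. Ugt2b1 (slope -0.33 ± 0.06, adjusted p = 0.000626) and Ugt2a3 (-0.24 ± 0.05, adjusted p = 0.000508) fell in graded fashion. Without replicates 1 and 7 at 40 mg/mL 2 of the 15 fell, and with the covariate none fell and 1 rose.

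Among 12 sulfotransferases 1 rose, against 3.84% of all genes: Sult1e1, the estrogen sulfotransferase. Its CPM was 0 to 2.28 in controls, 0 to 30.7 at 10, 0 to 156 at 20 and 0 to 143 at 40 mg/mL. Medians stayed at 0, 1.33, 1.08 and 0.709 CPM, and 3, 2 and 2 animals were above all controls. The slope (1.14 ± 0.29, adjusted p = 0.008) lost its call in 5 of 12 alternatives and without replicate 9 at 40 mg/mL, where it was 0.154 (adjusted p = 0.831).

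Of 12 carriers, transporters and deiodinase genes of thyroid hormone, 6 fell and none rose (median slope -0.143), against 4.6% of all genes falling. Dio1, which converts thyroxine to triiodothyronine, had 114 to 222 CPM in controls (median 196), 89.8 to 334 at 10 mg/mL (median 225), 17.7 to 200 at 20 mg/mL (median 139) and 44.1 to 215 at 40 mg/mL (median 111). The groups overlapped, with 5 of 9 animals at 10 mg/mL above all controls and 4 of 8 at 40 mg/mL below them. Its slope was -0.21 ± 0.07 (adjusted p = 0.0361). Of 4 Dio1 probes this was the most abundant, and 2 passed. The next most abundant had a slope of -0.22 ± 0.05 (adjusted p = 0.00215). All its top-dose animals were below every control (log2 effect -0.82). Its call without replicates 1 and 7 at 40 mg/mL is not given here. This probe was not among the 70, described below, that passed in every fit compared. The remaining probes did not pass (adjusted p = 0.0687 and 0.133). Ttr, transthyretin, a blood carrier, fell at -0.15 ± 0.05 (adjusted p = 0.0328). Both Ttr and the Dio1 probe first described lost their call without replicate 1 or 7 at 40 mg/mL. The list had 1 call without replicate 1 and none without both.

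Serpina7, thyroxine-binding globulin, went the other way without passing. It had 18.6 to 70.9 CPM in controls (median 26.7), 16.9 to 707 at 10 mg/mL (median 26.3), 23.4 to 1210 at 20 mg/mL (median 101) and 22.3 to 187 at 40 mg/mL (median 91.2). It was above all controls in 3, 6 and 5 animals, and its slope was 0.28 ± 0.16 (adjusted p = 0.342). In the 28 d animals its slope was 1.12 and passed (adjusted p = 0.000197), but the difference between the durations did not (adjusted p = 0.229).

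Enzymes of fatty acid synthesis rose: 11 of 22 measured, with 1 falling (Dgat1, slope -0.138, adjusted p = 0.00486, and 0.105 without replicates 1 and 7 at 40 mg/mL), against 3.84% of all genes rising. Their median slope was 0.242, and median effects were 0.288, 0.225 and 1.05. Acaca, acetyl-CoA carboxylase, which makes malonyl-CoA, had 62 to 101 CPM in controls (median 68.3), 59.7 to 223 at 10 mg/mL (median 88.6), 46.4 to 125 at 20 mg/mL (median 89.2) and 89.9 to 503 at 40 mg/mL (median 149). At 40 mg/mL 7 of 8 animals were above all controls. The slope was 0.34 ± 0.06 (adjusted p = 0.000278) and the step from 20 to 40 mg/mL 1.21 ± 0.27 (adjusted p = 0.0165, and 0.138 without both replicates). Elovl6, a fatty acid elongase (slope 0.51 ± 0.10, adjusted p = 0.000838), and Fasn, fatty acid synthase (0.38 ± 0.09, adjusted p = 0.00459), rose too. Srebf1, the transcription factor of the pathway, did not pass (slope -0.177, adjusted p = 0.099). In replicate 7 at 10 mg/mL, Acly (1230 CPM), Elovl6 (233 CPM), Fasn (338 CPM) and Me1 (853 CPM) all stood above the rest of their group. Leaving out replicate 3 at 40 mg/mL, or replicates 1 and 7, took the count to 6 of 22. Without replicate 3 the slopes of Acly and Me1 were 0.232 and 0.226 and did not pass (adjusted p = 0.0695 and 0.0862), and that of Elovl6 was 0.302. The slopes of Acaca, Elovl6 and Fasn passed in every fit without 1 library.

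Many of the steepest rises belonged to cell division genes. Of 24 measured, 13 rose and none fell, against 3.84% of all genes rising. Their median slope was 0.538, and median effects were 0.0392, 0.405 and 1.96. Birc5, survivin, which acts at the mitotic spindle, had 0 to 3.92 CPM in controls (median 1.14), 0.234 to 3.96 at 10 mg/mL (median 1.63), 0 to 9.12 at 20 mg/mL (median 3.67) and 1.08 to 79.8 at 40 mg/mL (median 6.03). The groups overlapped, and 4 of 8 top-dose animals exceeded all controls. Its slope was 0.92 ± 0.14 (adjusted p = 2.53e-05). Hmmr, a spindle-associated hyaluronan receptor named by its slope and not on the list, had 0 to 3.59 CPM in controls and 0 to 134 at 40 mg/mL (slope 1.02 ± 0.23, adjusted p = 0.00218). Cdc20, an activator of the anaphase-promoting complex, had 0.762 to 8.16 and 0.261 to 135 CPM (slope 0.89 ± 0.20, adjusted p = 0.00316). Cdk1, the mitotic kinase, had 0.223 to 3.81 and 0.712 to 79.9 CPM (slope 0.79 ± 0.14, adjusted p = 0.000226). Replication genes were mostly not called: Pcna (slope 0.0178, adjusted p = 0.825), Mcm2 (0.245, adjusted p = 0.069) and Mcm3 (0.147, adjusted p = 0.259) did not pass, and Mcm6 did (0.254, adjusted p = 0.0286).

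The rise was uneven among the 8 top-dose animals. Hmmr was at 133.9 CPM in replicate 7, 16.38 in replicate 6, 11.06 in replicate 1 and 5.731 in replicate 4, and at most 0.6935 in the other 4, of which 2 were at 0. Without replicate 7 the slope of Hmmr was 0.475 (adjusted p = 0.252) and that of Cdc20 0.545 (0.116), the list had 4 calls of 24, and without replicates 1 and 7, or with the covariate, 1. Birc5 alone among these named genes passed without both (slope 0.51, adjusted p = 0.0365). Cyp2b10 took another order in the same animals: 6424 and 1380 CPM in replicates 9 and 8, where Hmmr was at 0, and 68.11 and 20.29 CPM in replicates 7 and 1.

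Promoters are shown for 3 of these genes, each called as rising with all libraries. Whether the genes vary together was not tested. Short motifs known from cell cycle promoters were searched on both strands in the window from 250 bases before to 50 after the start: CCAAT, bound by NF-Y, and TTTGAA, the cell cycle homology region. Capitals mark both motifs in either strand's reading, and sequences and build (GRCm38.p6) are RefSeq's. They are, on the minus strand, chr11:40733388-40733687 for Hmmr, chr4:118437294-118437593 for Cdc20 and chr10:69352863-69353162 for Cdk1.
Hmmr: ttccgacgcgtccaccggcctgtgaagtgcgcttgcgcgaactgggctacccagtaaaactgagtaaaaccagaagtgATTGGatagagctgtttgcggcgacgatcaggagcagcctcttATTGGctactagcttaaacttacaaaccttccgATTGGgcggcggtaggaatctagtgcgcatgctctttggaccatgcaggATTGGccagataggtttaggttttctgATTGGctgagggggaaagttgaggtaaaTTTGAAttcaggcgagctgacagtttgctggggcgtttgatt
Cdc20: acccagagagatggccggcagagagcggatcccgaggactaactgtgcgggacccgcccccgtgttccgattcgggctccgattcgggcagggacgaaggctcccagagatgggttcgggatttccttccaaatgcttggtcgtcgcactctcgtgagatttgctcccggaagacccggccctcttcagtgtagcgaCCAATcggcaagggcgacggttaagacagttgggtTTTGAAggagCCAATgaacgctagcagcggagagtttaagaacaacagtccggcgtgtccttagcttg
Cdk1: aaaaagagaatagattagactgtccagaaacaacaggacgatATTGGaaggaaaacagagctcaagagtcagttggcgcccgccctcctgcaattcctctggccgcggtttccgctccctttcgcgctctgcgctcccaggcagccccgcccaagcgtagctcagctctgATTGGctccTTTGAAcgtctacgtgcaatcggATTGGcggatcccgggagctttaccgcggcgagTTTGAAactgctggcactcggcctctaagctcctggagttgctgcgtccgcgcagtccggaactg
Hmmr holds 5 CCAAT and 1 TTTGAA, Cdc20 2 and 1, and Cdk1 3 and 2. Of the 13 list genes that rose, 11 had a promoter in the table, 10 of them (90.9%) with CCAAT and 6 (54.5%) with TTTGAA. Of the 11 list genes not called, 9 had a promoter there, with 10 promoters among them, so not every gene counts once. Of those 10 promoters, 7 (70%) held CCAAT and 2 (20%) TTTGAA. Over all 32851 promoters of the same length the shares were 37.4% and 17.9%. These matches describe the letters only.

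Some genes of the hepatocyte's zones, of bile acids and of amino acid breakdown fell. Within each of these lists, the median effect was lower at the top dose than at the doses below it. Of 11 pericentral genes 6 fell, of 14 periportal genes 4 fell, of 16 genes of bile acid synthesis and transport 8 fell, and of 21 genes of the urea cycle and amino acid breakdown 7 fell. None of these lists had a rising gene, and 4.6% of all genes fell. Cyp2e1, a pericentral P450 that oxidises small alcohols, had 5630 to 8330 CPM in controls (median 6690), 2390 to 8800 at 10 mg/mL (median 6830), 3950 to 7380 at 20 mg/mL (median 4850) and 1020 to 4700 at 40 mg/mL (median 3180). All 8 top-dose animals were below every control, and 6 of 9 at 20 mg/mL were. Its slope was -0.34 ± 0.06 (adjusted p = 0.000246). Cyp2f2, a periportal P450, had 271 to 372 CPM in controls and 52.6 to 238 at 40 mg/mL, again with no overlap. Its slope was -0.36 ± 0.06 (adjusted p = 5.47e-05) and its step from 20 to 40 mg/mL was -1.06 ± 0.24 (adjusted p = 0.0165, and 0.248 without replicates 1 and 7 at 40 mg/mL). Both Cyp1a2 (slope -0.37 ± 0.08, adjusted p = 0.00104) and Cdh1, E-cadherin (-0.27 ± 0.05, adjusted p = 0.000278), fell. Glul, the glutamine synthetase of the innermost pericentral cells, did not pass (slope -0.0624, adjusted p = 0.454), nor did Lgr5 and Axin2.

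Apoe, apolipoprotein E, named after its values were seen, had 39800 to 58900 CPM in controls, 23900 to 57400 at 10, 20800 to 50100 at 20 and 7590 to 37100 at 40 mg/mL, with no overlap between the first and last. It fell at -0.34 ± 0.07 (adjusted p = 0.000394). Of 8 hepatocyte markers 4 fell (Alb, Apoa1, Serpina1a and Ttr), against 4.6% of all genes. The summed level of the 8 markers was 33300 to 49800 CPM in controls and 8560 to 35800 at 40 mg/mL. Most of that sum was Apoa1, with a control median of 28400 CPM beside 41100 for the sum. Markers of other cells stood beside this as follows. None of 9 Kupffer cell markers, of 4 bile duct markers, of 3 T cell markers or of 6 B and plasma cell markers passed, and 1 of 8 sinusoidal endothelial and 1 of 10 stellate markers fell. Of neutrophil, adipocyte and pancreatic acinar markers 1 each was measured, and none passed. Summed Kupffer markers were 216 to 286 CPM in controls and 94.4 to 326 at 40 mg/mL. Red cell markers rose in 2 of 3, against 3.84% of all genes: Hba-a2 (slope 0.49 ± 0.11, adjusted p = 0.00284) and Hbb-bt (0.46 ± 0.14, adjusted p = 0.0228), with sums of 15.3 to 41.4 CPM in controls and 4.52 to 179 at 40 mg/mL. Neither passed without replicates 1 and 7. Their part in the trends was not tested. Without those replicates, 2 of 11 pericentral, 2 of 14 periportal, 1 of 16 bile acid and 0 of 21 urea cycle genes fell, and of the 8 hepatocyte markers 1 fell, Serpina1a. With the covariate no pericentral or urea cycle gene passed, 2 periportal genes rose and 2 fell, and 1 bile acid gene rose and 2 fell.

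Small, even rises were found in ribosomal protein genes: 14 of 24 rose and none fell, against 3.84% of all genes rising. Their median slope was 0.0895. Rps24 had 52.6 to 75 CPM in controls (median 65.7), 61 to 91.5 at 10 mg/mL (median 77.3), 68.1 to 87.5 at 20 mg/mL (median 76.6) and 82.7 to 120 at 40 mg/mL (median 94). All 8 top-dose animals were above every control. Its slope was 0.14 ± 0.02 (adjusted p = 0.000117). The list's count was 8 without replicate 1 at 40 mg/mL, 4 without both and 1 with the covariate. Gpx4, a selenoprotein that reduces lipid peroxides, likewise had all 8 animals at 40 mg/mL (99.9 to 142 CPM) above all controls (71.9 to 89.6 CPM), as did 8 of 9 at 10 mg/mL (slope 0.12 ± 0.02, adjusted p = 0.000838). It was chosen after its values were seen, among the 17 probes fully above controls at 40 mg/mL. Fully below controls were 2 probes at 10 mg/mL (0.0117%; Fgfr4 and Hnrnpa0), 7 at 20 mg/mL (0.0411%) and 100 at 40 mg/mL (0.587%). The 7 at 20 mg/mL included both probes of Serpina3k, an abundant protease inhibitor, besides Mug1, Slc22a28, Serpina1e, Cyp2c68 and Uba1.

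Of 21 NRF2 targets, genes of the oxidative stress response, 4 rose and none fell, against 3.84% of all genes rising: G6pdx (slope 0.54 ± 0.11, adjusted p = 0.00127), Me1, Gstm1 and Nqo1 (0.173, adjusted p = 0.0406). G6pdx without replicate 3 at 40 mg/mL had a slope of 0.293 (adjusted p = 0.0603), and Gstm1 without replicate 8 one of 0.112 (0.137). Nqo1 lost its call in 13 of the fits without 1 library and without replicates 1 and 7 (0.225). The list's count was 2 with limma and 6 with the covariate. Gclc, Gclm and Hmox1, for glutathione and heme, did not pass. Of 14 p53 targets 3 rose, among them Ccng1 (0.14 ± 0.04, adjusted p = 0.00813, and 0.284 without replicates 1 and 7), while Cdkn1a did not pass (0.152, adjusted p = 0.72). Without those replicates 1 of the 14 rose, and none did with limma or the covariate. Among 15 alcohol and aldehyde dehydrogenases 5 fell and Aldh3a2 rose (0.157, adjusted p = 0.0137), and none passed without those replicates. None of 18 circadian clock genes passed. Of 24 genes of cholesterol synthesis 1 rose and 1 fell, and of 25 genes of fatty acid oxidation 1 fell. Falls were called for 2 of 20 genes of the unfolded protein and stress responses and 2 of 24 of oxidative phosphorylation. Of all genes 4.6% fell. In the cholesterol, fatty acid oxidation, stress response and oxidative phosphorylation lists, no gene passed without replicates 1 and 7. With the covariate none of their genes fell. Then 1 of fatty acid oxidation, 1 of the stress responses and 4 of oxidative phosphorylation rose.

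**Figure D3:**
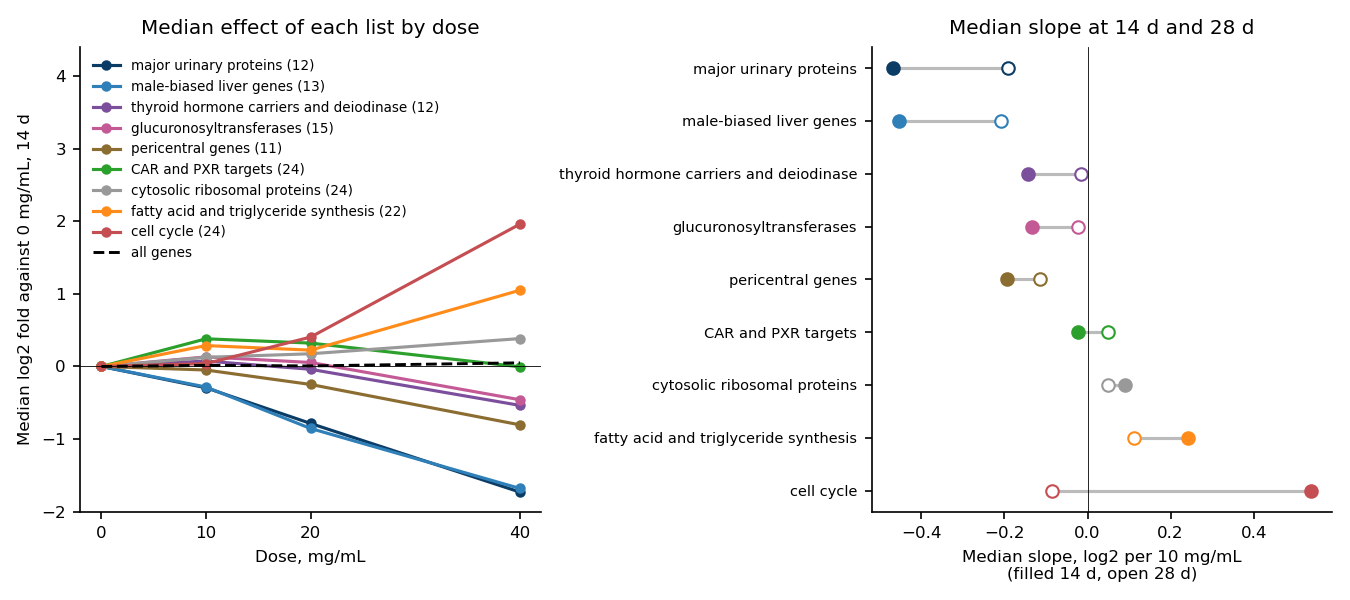
Left: median log2 fold against 0 mg/mL at 14 d (vertical axis) by dose in mg/mL for 9 gene lists, with the number of genes measured, and for all genes (dashed). Right: median slope in log2 per 10 mg/mL of each list at 14 d (filled) and 28 d (open). The cell cycle list reaches 1.96 at 40 mg/mL and the MUPs -1.73, while the CAR and PXR targets are at 0.381, 0.322 and -0.00462.

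The 36 libraries of the 28 d exposure, at the same doses and with controls of their own, had 22 probes past the linear trend (0.129%), 13 rising (0.0762%) and 9 falling (0.0528%), against 1362 at 14 d. The difference in slope between the durations was called for 0 of 17050 probes in edgeR (0%; 1143 at an unadjusted p under 0.05), and for 16 in DESeq2. Median slopes at 14 d and 28 d were -0.469 and -0.191 for the MUPs, 0.242 and 0.111 for fatty acid synthesis and 0.538 and -0.0844 for the cell cycle list. Birc5 had slopes of 0.92 and -0.14 (adjusted p of the difference 0.0827), and Mug1 -0.49 and -0.21 (0.3). Cyp2a22 rose in both, at 0.42 and 0.37 (28 d adjusted p = 0.0244).

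The trend calls were set against the single libraries and the other ways of fitting. Of the 1362 probes, 504 passed in each of 35 fits that left out 1 library, and 70 probes of 61 genes also passed in each of 12 other alternatives. These left out the 5 CPM filter and the sum of probes per gene, both of which are among the 12 alternatives given for Sult1e1. Of the 70, 53 fell and 17 rose, and 43 were graded. Those that fell included Mup7, Mup13, Mup15, Mup16, Mup19, Mup20, Mug1, Slc22a28, Gm10681, Cyp7b1, Cyp2f2, Cdh1 and Apoe. Those that rose included Birc5, Acaca, Elovl6, Fasn, Cyp2a22 and Akr1b10. None of the UGT genes and carriers of thyroid hormone named above was among them.

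**Figure D4:**
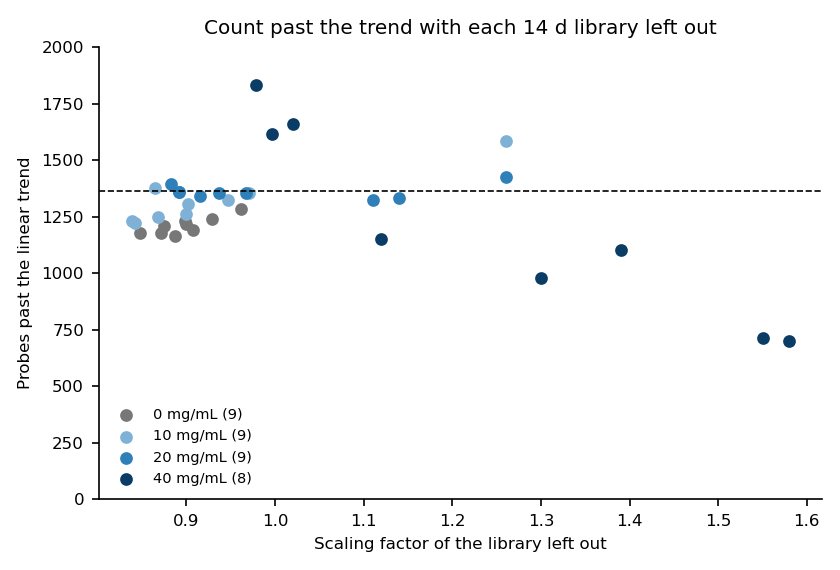
Number of probes past the linear trend (vertical axis) when each of the 35 libraries is left out, by the scaling factor of that library (horizontal axis) and coloured by dose. The dashed line is the count with all libraries, 1362. The lowest counts, 699 and 714, follow the removal of replicates 7 and 1 at 40 mg/mL.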

How the data were processed

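Whole-number counts per probe were used as the authors deposited them, in 1 table of 30146 probes of 21400 symbols (21350 matched the reference names). Per the submitters' processing notes, bcl2fastq 2.20 and Bowtie were used. The build and the counting tool are not given in the sources used here. The total was 0.0108 M in the library left out (replicate 5, 40 mg/mL). No 2 libraries of a 14 d group were duplicates (smallest chi-square per degree of freedom 8.64).

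In R 4.3.3, edgeR 4.0.16 (filterByExpr, TMM, robust quasi-likelihood, 1 mean per group) was fitted over 71 libraries of both durations, which kept 17050 probes of 11784 genes and 99.9% of counts. Contrasts on dose were adjusted by Benjamini-Hochberg at 0.05. DESeq2 1.42.0 and limma 3.58.1 were alternatives, and the code was tested on simulated data. CPM values use TMM scaling. Probe levels are not comparable between genes. List counts use the probe of highest mean per gene.

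Shapes compare the 4 fitted means with their range R. In a reversal the last step goes back by more than 0.1 R, and in a plateau it is within 0.1 R of 0. A top step holds at least 0.75 R with no earlier step back by over 0.1 R. A graded probe has a last step between 0.1 and 0.75 R, also with no earlier step back by over 0.1 R. All other probes are mixed. Library measures were tested with 100000 permutations, two-sided, whose smallest p is 1e-05.

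Named genes were the 12 steepest each way of at least 5 CPM, up to 6 each way for the 0 to 20 mg/mL trend and for the departure, up to 3 per list by p, up to 4 each way for the slope difference, and 8 always named (Cyp2b10, Ugt1a1, Ugt2b1, Dio1, Sult1e1, Slco1a1, Ttr, Serpina7). Other members of a list are named to describe it. Cyp2c29, Serpina3k, Gpx4, Fasn, Apoe, Fgfr4, Hnrnpa0, Cyp2c68 and Uba1 were added after their values were seen. The members, the 23 pathway lists and the 11 marker lists were chosen with earlier results of these data known. A listed gene is not reported here and stands in no list count.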

Additional observations from a re-analysis of the deposited data

Results flagged for a closer look

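In 44 of 304 groups of 8 or 9 animals checked, the highest or lowest animal stood apart from the nearest by Dixon's criterion. Chance flags about 1 in 20 independent groups, but these groups share animals. Some genes were also named for a departure that rested on 1 animal, so the count cannot be set against chance. Replicate 2 at 10 mg/mL held many of the flags. Its scaling factor was 1.26 (next 0.971). It was lowest in its group for Mup13 (3620 CPM), Mup19 (1510), Mup7 (493), Mup4 (258), Mup15 (236), Mup16 (46.6), Apoe (23900), Apoa1 (11700), Cyp2e1 (2390), Slc27a5 (476), Cyp1a2 (55.5), Ugt2b1 (18.7), Slco1a1 (0.579) and Hba-a2 (0), and highest for Mmp7 (62.3). Replicate 7 at 10 mg/mL was highest for Acly (1230 CPM), Me1 (853), Fasn (338), Elovl6 (233) and Gpx4 (137), and replicate 3 for Mup20 (123).

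At 20 mg/mL, replicate 5 was highest for Saa1 (62900 CPM), Saa2 (43400), Serpina7 (1210) and Apcs (966). Replicate 9 was lowest for Cyp1a2 (50.6), Dio1 (17.7) and Birc5 (0), and highest for Sult1e1 (156). Serpina3k was lowest in replicate 2 (6820), and in replicate 4 Alb was highest (8800) and Hbb-bt lowest (0). At 40 mg/mL, replicate 3 was highest for Saa1 (4700) and Saa2 (1760), replicate 4 lowest for Cyp7b1 (0.895) and replicate 1 for Acsm2 (0). Among controls, replicate 1 was highest for Ttr (6260) and lowest for Dio1 (114) and Rps24 (52.6), replicate 3 lowest for Cyp7b1 (5.51), replicate 4 for Akr1b10 (3.06) and replicate 5 for Serpina1e (8680), and replicate 9 was highest for Acaca (101).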

How the results depend on the processing

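No paired analysis was possible because the labels give no pairing. Replicate numbers are not in the labels either: they count the libraries of each group in the order listed. Where values below moved, the cause was not tested. The 1362 trend calls (622 rising, 740 falling) became 232 (93, 139) without replicates 1 and 7 at 40 mg/mL and 430 (277, 153) with the scaling factor as a covariate. They became 658 (171, 487) with the library under 100000 counts kept, 733 with limma (184 rising) and 1587 with DESeq2. The share rising was 26% with the small library kept, 25.1% with limma and 64.4% with the covariate. The median top-dose effect over all probes was 0.0623, and -0.0625 with the small library kept.

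Leaving out 1 library gave 699 to 1833 trend calls (297 to 819 rising, 387 to 1014 falling), 223 to 845 for any dose effect (571), 9 to 356 for the top step (147), 1 to 14 for the trend over 0 to 20 mg/mL (6), 3 to 12 departures (8) and 0 to 9 slope differences (0).

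The trend over 0 to 20 mg/mL gave 13 with a 5 CPM filter, 1 from 14 d libraries alone, 11 per gene, 25 with the covariate, 1 with the small library, 19 with limma and 21 with DESeq2. Departures were 0 from 14 d alone, 5 without replicates 1 and 7 and 2 with limma. Any dose effect was 2218 unfiltered, 324 from 14 d alone, 245 with the covariate, 188 with the small library and 87 without replicates 1 and 7. The top step was 74 unfiltered, 262 at 5 CPM, 61 from 14 d alone, 27 with the small library, 1 without replicates 1 and 7, 55 with limma and 351 with DESeq2. Slope differences were 16 in DESeq2.

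Over probes with any dose effect, 270 were graded, 105 top step, 163 mixed, 11 plateau and 22 reversal. A tolerance of 0.2 R gave 152 mixed, 66 plateau and 1 reversal. Of 73 named slopes, 2 called ones changed sign, Slc27a5 with the covariate (0.01) and Ccnb1 in limma (-0.066). Of those not called, 5 did in at least 1 alternative: Alas2, Lcn2, Mmp7, Saa2 and Saa1, which was called at -0.424 in DESeq2.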
